A study of Mus musculus with 6 samples.

Results

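The genes described here encode the constitutive proteasome: the subunits of its core particle and cap, the regulators that bind it and the chaperones that assemble it. With earlier results of these data known, they were chosen by symbol, as every row named Psma to Psmg with a number. The inducible genes Psmb8, Psmb9, Psmb10, Psme1 and Psme2 were left out by name. This gave 44 of 24346 gene symbols, namely 8 Psma, 8 Psmb, 6 Psmc, 14 Psmd, 3 Psme, 1 Psmf and 4 Psmg genes. RNA-seq libraries of total RNA were compared between 3 control samples and 3 samples stimulated with semaphorin 4D (Sema4D), a ligand of plexin-B receptors. Both groups were primary articular chondrocytes, the cells of joint cartilage, from ICR mice at postnatal day 4, and the labels name no other agent or genetic change. No dose, duration or control medium is given in the sources used here. Whether the replicates of a group came from different cultures or animals is not stated. The p-values therefore speak of the spread among these 6 libraries, part or all of which may be technical.

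The proteasome degrades proteins that carry ubiquitin chains and thereby controls the lifetime of most short-lived regulators, including the inhibitors of NF-kappaB. Its core is a barrel of stacked rings, with alpha subunits forming the gate and beta subunits, some of them proteolytic, lining the chamber. The cap recognises ubiquitin, removes it, unfolds the substrate with a ring of ATPases and feeds it into the core. During inflammation the catalytic beta subunits can be replaced by inducible ones.

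Expression was read as FPKM, a fragment count scaled to transcript length and to the mapped fragments of the library, so levels are given per length. Depth, estimated from the steps between low FPKM values, was 1.34e+07 to 1.79e+07 fragments per library, and a fragment on 1 kilobase was worth 0.0559 to 0.0746 FPKM. Columns summed to 493457 FPKM on average in control and 522490 FPKM in Sema4D libraries, 5.88% more. Chondrocyte markers were abundant in every library (all 8 listed markers summed to 12910 to 13960 FPKM in control and 10460 to 11330 FPKM in Sema4D libraries), and 7 of the 8 fell. Fibroblast markers summed to 5192 to 5553 and 5297 to 5525 FPKM, mostly Col1a1, and 2 of the 5 rose (Pdgfra, from 22.4 to 23.6 up to 41.5 to 42.8 FPKM, and Dcn) and 1 fell (Thy1). Macrophage and osteoclast markers summed to 80.95 to 88.99 and 91.27 to 95.76 FPKM, mostly Ctsk. Of the 5 of these 8 markers that were tested, Ctsk rose (52.5 to 53.9 up to 66.3 to 68.8 FPKM). Lyz2 (18.5 to 25.3 down to 14.8 to 17.3 FPKM) and Tyrobp fell. Of those not tested, Ptprc was at most 0.127 FPKM in any library. Adgre1, also not tested, was at 0.0784 to 0.268 FPKM in control and 0.563 to 0.750 FPKM in Sema4D libraries. The 4 osteoblast and the 4 muscle markers each summed to under 6 FPKM per library. Alpl, the 1 osteoblast marker tested, fell (2.27 to 2.60 down to 1.75 to 2.10 FPKM). Endothelial and erythroid markers each summed to at most 0.307 FPKM, and Hbb-bs was listed at 0 throughout. The part of these marker levels in the proteasome results was not tested, and in such bulk samples fewer cells of a type and less RNA per cell cannot be told apart.

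Constitutive proteasome genes were slightly higher with Sema4D in the deposited values, with 4 members standing well above the rest. Psmd10 rose 1.78-fold, Psma6 1.42-fold, Psmg4 1.35-fold and Psmd8 1.32-fold by the ratio of mean FPKM. Of the 42 members tested (mean of at least 1 FPKM), 25 rose and 0 fell at an adjusted p under 0.05 by limma on log2(FPKM + 1), adjusted over all 11603 genes tested. That is 59.5% of the members, beside 24.5% of all tested genes called higher and 22.2% called lower. The other 17 members did not pass. At an unadjusted p under 0.05, 26 members were higher and 0 lower. The median log2 fold change over the 42 members was 0.12, beside 0.01 over all tested genes. Without Psma6, Psmd8, Psmd10 and Psmg4, which were singled out after their values were seen, the median was 0.11 and the remaining changes lay between -0.07 and 0.23.

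Most of these small rises depended on how libraries were scaled. With every column scaled to the same sum, 7 members rose and 4 fell, beside 17.3% of all tested genes called higher and 32.8% called lower. The median over members was then 0.04, beside -0.07 over all tested genes. Without the filter on low values, where adjustment runs over more genes, 17 of 44 members rose, beside 2515 of all 24346 genes. Psma4, Psma7, Psmb3, Psmb4, Psmb5, Psmc5, Psmd12 and Psmd14 then missed the threshold. Counts were 14 higher and 2 lower after quantile normalization, beside 2167 higher and 3415 lower of all 11603 tested genes. After median centring they were 13 higher and 1 lower, beside 2222 and 3378 of all tested genes. Psma6, Psmd2, Psmd8, Psmd11, Psmd10, Psme3 and Psmg4 were higher in each of the 14 settings tried, and no other member was. The same 7 were the members called higher under equal sums alone. There 7 of 42 was near the 17.3% of all tested genes, so nothing is read from that count. How many of all tested genes were higher in every setting is not given here. The 4 that fell under equal sums were Psmb1 (-0.11), Psmc3 (-0.14), Psmc6 (-0.11) and Psmd6 (-0.15), with limma adjusted p of 0.0497, 0.00817, 0.025 and 0.0334. In the deposited values the same 4 changed by -0.02, -0.06, -0.02 and -0.07 and did not pass. Equal sums lowered the median of all tested genes from 0.01 to -0.07 on the log2 scale. Below, "rose" refers to the deposited values unless another scaling is named. Counts by role stand beside 24.5% of all tested genes higher and 22.2% lower, or 17.3% and 32.8% under equal sums.

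**Figure D1:**
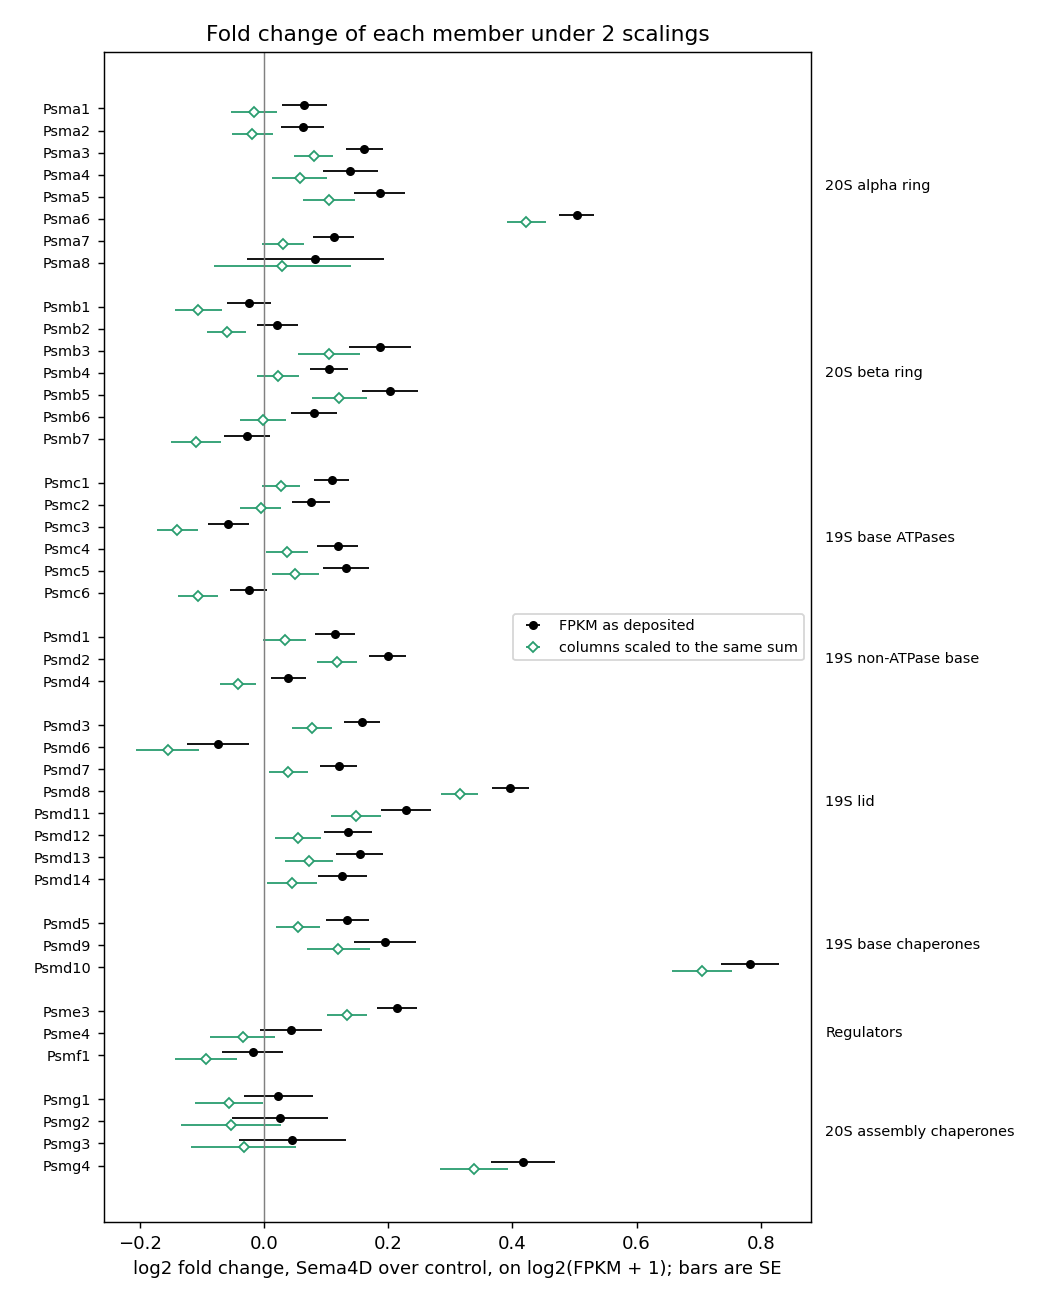
Log2 fold change (x axis, Sema4D over control on log2(FPKM + 1), bars are SE) of each tested member by role, from deposited FPKM (filled) and with columns scaled to the same sum (open). Psmd10, Psma6, Psmg4 and Psmd8 lie to the right of all other members under both scalings, and every member lies further left under equal sums.

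The groups of libraries did not overlap, with all Sema4D values above all control values, for 25 of 42 members, beside 29.6% of all tested genes. The 25 were the members that rose, except that Psma4 rose with overlapping groups and Psmc2 did not pass although its groups were apart. No member had all Sema4D values below all control values, beside 27.0% of tested genes. Sema4D replicate 2 held the highest Sema4D value for 24 of the 42 members, and Sema4D replicate 3 the lowest for 25. Without Sema4D replicate 2, 18 members rose, and without Sema4D replicate 3, 24 did, beside 2505 and 2561 of all tested genes.

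**Figure D2:**
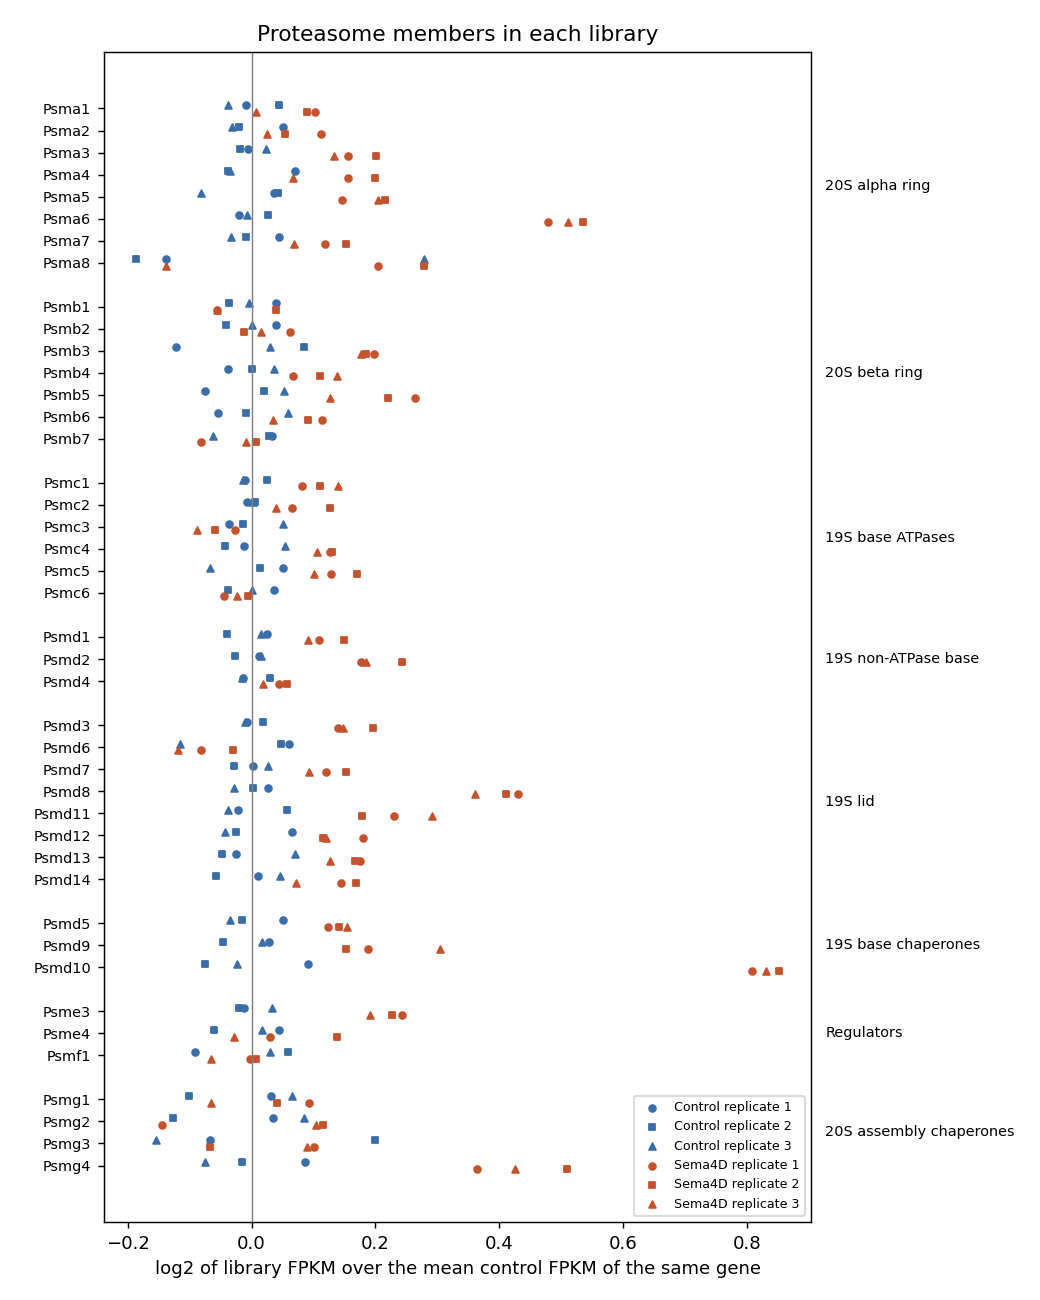
Value of each tested member in each library as log2 of FPKM over the mean control FPKM (x axis) by role, with control libraries in blue and Sema4D libraries in orange and replicates by marker shape. Sema4D points lie right of every control point for 25 of 42 members, by the widest margin for Psmd10.

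The alpha ring forms the outer gate of the core. In the deposited values 5 of its 8 subunits, or 62.5%, rose, beside 24.5% of all tested genes. The median change over the 8 was 0.13 on the log2 scale. Under equal sums 1 of the 8 rose, beside 17.3% of all tested genes, so nothing is read from that count. The 7 somatic alpha subunits were at 58.7 to 117.9 FPKM in control libraries, with Psma2 and Psma7 highest and Psma1 lowest. Psma2 and Psma7 differed by less than their SD. Psma6 was at 90.4, 93.4 and 91.3 FPKM in control and at 127.7, 132.9 and 130.7 FPKM in Sema4D libraries. Every Sema4D value was above every control value. The change was 0.50 on the log2 scale (SE 0.028, limma adjusted p = 2.08e-06, and 0.42 with adjusted p = 1.02e-05 under equal sums). Psma3 (77.8 to 87.2 FPKM), Psma5 (66.7 to 76.0), Psma4 (96.2 to 106.0) and Psma7 (117.5 to 127.1) also rose, by 0.11 to 0.19 on the log2 scale. None of these 4 passed under equal sums (adjusted p = 0.0652, 0.0708, 0.31 and 0.479). Psma4 and Psma7 were also not past the threshold without control replicate 2 or 3 or without Sema4D replicate 1 or 2 (adjusted p 0.0638 to 0.101). Psma1 and Psma2 changed by 0.07 and 0.06 and did not pass. Psma8, the testis form of an alpha subunit, was near the filter, at 1.54 to 2.13 FPKM in control and 1.60 to 2.13 FPKM in Sema4D libraries. At full transcript length that is about 36 to 61 fragments per library.

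In the beta ring, which holds the proteolytic sites, 3 of 7 tested subunits (42.9%) rose, beside 24.5% of all tested genes. The median change over the 7 was 0.08. Under equal sums 0 rose and 1 fell, beside 17.3% and 32.8% of all tested genes. There 1 was higher and 2 were lower at an unadjusted limma p under 0.05. Without the filter 0 of the ring's genes passed by limma, and 3 were higher at an unadjusted p under 0.05. All 7 somatic subunits were abundant, from Psmb2 at 92.8 FPKM to Psmb4 at 156.2 FPKM in control libraries. Psmb4 and Psmb1 (145.8 FPKM) were the 2 highest of all members, and each stood above the next by over 2 SD. Of the 3 catalytic subunits, Psmb5, which cuts after hydrophobic residues, was at 115.5, 123.4 and 126.2 FPKM in control and 146.1, 141.7 and 132.9 FPKM in Sema4D libraries. It rose by 0.20 (SE 0.045, limma adjusted p = 0.00656). It missed the threshold under equal sums (0.12, adjusted p = 0.0509), after quantile normalization (0.09, adjusted p = 0.139) and without the filter (adjusted p = 0.0622). Mir686 lies within the span of Psmb5. Its mean was 2825 FPKM in control and 1277 FPKM in Sema4D libraries (-1.21, limma adjusted p = 0.0149). How fragments were assigned to Psmb5 and Mir686 was not tested. Psmb6, which cuts after acidic residues, was at 106.6, 110.0 and 115.3 FPKM in control and 119.8, 117.9 and 113.4 FPKM with Sema4D. Its groups overlapped (0.08, adjusted p = 0.107, and 0.0491 without control replicate 3). Psmb7, which cuts after basic residues, was at 113.6, 113.3 and 106.4 FPKM in control and 105.0, 111.6 and 110.4 FPKM with Sema4D, with overlapping groups (-0.03, SE 0.037, adjusted p = 0.583). It was lower after quantile normalization (-0.10, adjusted p = 0.0472).

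Among the beta subunits without a proteolytic site, Psmb3 rose from 104.4 ± 7.66 to 118.8 ± 0.900 FPKM (values with ± are means with their SD over 3 libraries, control first). Psmb4 rose from 156.2 ± 4.01 to 168.1 ± 4.15 FPKM. Both calls were lost under equal sums (limma adjusted p = 0.115 and 0.598), and the change of Psmb4 was -0.02 after quantile normalization. Psmb4 also missed the threshold when control replicate 1 or 2, or Sema4D replicate 2 or 3, was dropped (adjusted p 0.0575 to 0.0729). Psmb1 and Psmb2 changed by -0.02 and 0.02 and did not pass. Psmb11, the beta subunit of thymus cortex, was listed at 0.0366, 0.0283 and 0 FPKM in control and 0, 0.0442 and 0.065 FPKM in Sema4D libraries, under the filter.

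The inducible counterparts, which the symbol rule leaves out, changed far more than the catalytic subunits they can replace. The ratio of Psmb5 to Psmb8 was 157.8 to 181.7 in control and 7.83 to 12.2 in Sema4D libraries. That of Psmb6 to Psmb9 was 88.3 to 190.1 and 16.3 to 23.3, and that of Psmb7 to Psmb10 was 13.1 to 13.97 and 3.32 to 3.45. In control libraries Psmb8 was at only 0.679 to 0.732 FPKM and Psmb9 at 0.579 to 1.31 FPKM. The control ratios of these 2 pairs thus rest on low values and are imprecise. Psmb10 was at 8.11 to 8.39 FPKM in control libraries. Groups did not overlap for any of the 3 pairs (two-sided exact permutation p = 0.1 each, adjusted p = 0.1 over 3 pairs, the smallest that 3 against 3 libraries allows). The constitutive gene remained the more abundant of each pair in every library.

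**Figure D3:**
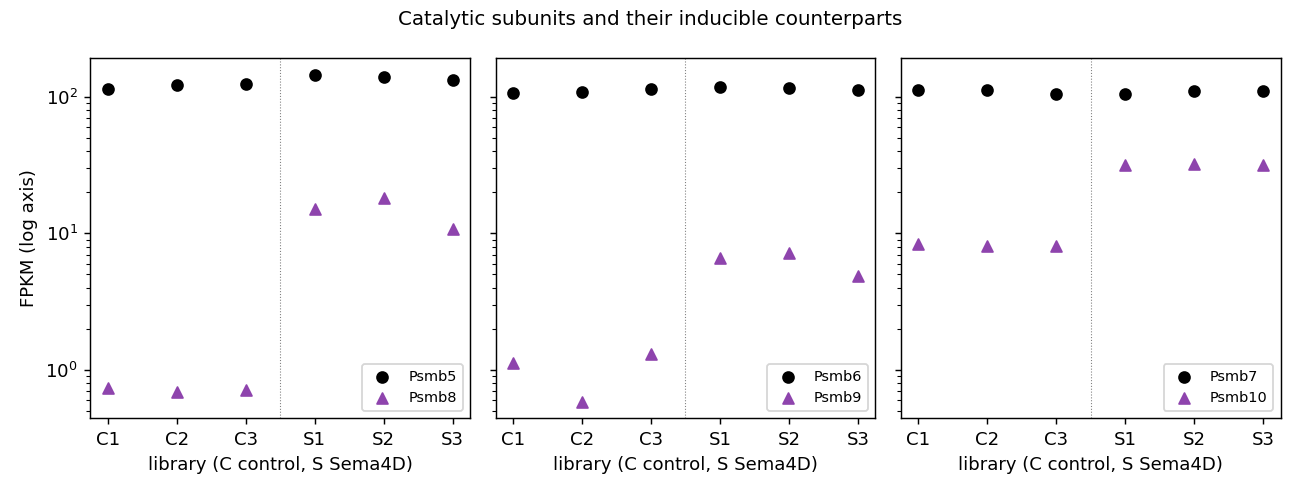
FPKM (log axis) of Psmb5, Psmb6 and Psmb7 (circles) and of Psmb8, Psmb9 and Psmb10 (triangles) in the 3 control (C) and 3 Sema4D (S) libraries. The constitutive genes stay between 105.0 and 146.1 FPKM in all 6 libraries, while the inducible genes are higher in each Sema4D library than in any control library.

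The chaperones Psmg1 to Psmg4 help to assemble the alpha ring, Psmg1 with Psmg2 and Psmg3 with Psmg4 as pairs. Of the 4, 1 rose (25%, median change 0.04). That is near the 24.5% of all tested genes, so nothing is read from the count. At 18.95 to 25.1 FPKM in control libraries these chaperones lay below all 14 somatic core subunits. Psmg4 was at 22.1, 20.6 and 19.75 FPKM in control and 26.8, 29.6 and 27.9 FPKM in Sema4D libraries. All its Sema4D values were above all control values (0.42, SE 0.052, limma adjusted p = 0.000263, and 0.34 with adjusted p = 0.00105 under equal sums). Its partner Psmg3 was at 18.1, 21.75 and 17.0 FPKM in control and 20.3, 18.1 and 20.2 FPKM with Sema4D, with overlapping groups (0.05, SE 0.086, adjusted p = 0.688). Psmg1 and Psmg2 changed by 0.02 and 0.03 and did not pass. Whether the change of Psmg4 differed from that of Psmg3 was not tested.

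The base of the cap unfolds substrates with a ring of 6 ATPases, Psmc1 to Psmc6. They lay within a narrow band of 58.6 to 85.7 FPKM in control and 63.7 to 87.6 FPKM in Sema4D libraries. With a median change of 0.09 over the 6, Psmc1, Psmc4 and Psmc5 (50%) rose, beside 24.5% of all tested genes. Psmc2, Psmc3 and Psmc6 did not pass. Psmc5, with the largest change of the 6, was at 82.7, 80.6 and 76.2 FPKM in control and 87.3, 89.8 and 85.6 FPKM with Sema4D (0.13, SE 0.037, limma adjusted p = 0.0194). Without control replicate 3 its adjusted p was 0.0606 and without Sema4D replicate 2 it was 0.0667. Psmc1, with the smallest p, rose from 79.2 ± 1.20 to 85.5 ± 1.68 FPKM (0.11, SE 0.029, adjusted p = 0.0139). Psmc3 was at 83.5, 84.8 and 88.7 FPKM in control and 84.1, 82.2 and 80.6 FPKM with Sema4D, with overlapping groups (-0.06, adjusted p = 0.189). Under equal sums 0 of the 6 rose by limma, adjusted or unadjusted, and Psmc3 and Psmc6 fell. Those 2 of 6 were near the 32.8% of all tested genes called lower there. Psmc4 missed the threshold when control replicate 2, Sema4D replicate 1 or Sema4D replicate 2 was dropped (adjusted p 0.0519 to 0.0577).

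The scaffold subunits of the base, Psmd1 and Psmd2, both rose, while the ubiquitin receptor Psmd4 did not pass (0.04, limma adjusted p = 0.28). Psmd2 was at 91.9, 89.4 and 92.0 FPKM in control and 102.9, 107.8 and 103.5 FPKM in Sema4D libraries, again with no overlap. Its change was 0.20 (SE 0.030, adjusted p = 0.000754), and it remained past the threshold under equal sums (0.12, adjusted p = 0.0165). Psmd1 rose from 49.5 ± 1.19 to 53.65 ± 1.12 FPKM (0.11, adjusted p = 0.0191). That call was lost under equal sums (0.442) and without control replicate 2 (0.0621) or Sema4D replicate 2 (0.0667), and with a replicate block (0.0552).

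In the lid, which removes ubiquitin chains, 7 of 8 subunits (87.5%) rose, beside 24.5% of all tested genes. The median change over the 8 was 0.14. Psmd8 was at 98.4, 96.7 and 94.7 FPKM in control and 130.1, 128.4 and 124.1 FPKM in Sema4D libraries. Of the 8 lid subunits chosen by symbol it was the most abundant in both groups, followed by Psmd7 (means of 96.6 and 79.7 FPKM in control, and of 127.5 and 86.8 FPKM with Sema4D). Its change was 0.40 (SE 0.030, limma adjusted p = 1.22e-05, and 0.32 with adjusted p = 4.19e-05 under equal sums). Psmd11 was at 41.2, 43.5 and 40.7 FPKM in control and 49.1, 47.3 and 51.1 FPKM with Sema4D (0.23, SE 0.040, adjusted p = 0.00188, and 0.0154 under equal sums). Psmd14, the deubiquitinase of the lid, rose from 47.1 ± 1.71 to 51.5 ± 1.78 FPKM (0.13, adjusted p = 0.0291). Its call was lost under equal sums (0.374), with a replicate block (0.0676), and without control replicate 1 or 2 or Sema4D replicate 1 or 2 (0.0551 to 0.0941). Psmd3, Psmd7, Psmd12 and Psmd13 rose by 0.12 to 0.16, and none of them passed under equal sums. Psmd12 also missed the threshold without control replicate 2 or 3 or without Sema4D replicate 1 (adjusted p 0.0639 to 0.0726). Psmd6 was at 60.2, 59.6 and 53.3 FPKM in control and 54.5, 56.5 and 53.1 FPKM with Sema4D, with overlapping groups (-0.07, SE 0.050, adjusted p = 0.263). Without control replicate 3 it was lower (-0.13, adjusted p = 0.0323).

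Psmd5, Psmd9 and Psmd10 are chaperones that help to build the ATPase ring and leave before the cap is finished. All 3 rose, beside 24.5% of all tested genes. Psmd10, also known as gankyrin, was at 12.8, 11.4 and 11.8 FPKM in control and 21.05, 21.7 and 21.4 FPKM in Sema4D libraries. This was the largest change of any member, with no overlap (0.78, SE 0.047, limma adjusted p = 3.04e-06, and 0.71 with adjusted p = 6.07e-06 under equal sums). Among all 11603 tested genes it ranked at 549 by log2 fold change, Psma6 at 918, Psmg4 at 1098 and Psmd8 at 1156. Psmd5 rose from 27.4 ± 0.857 to 30.15 ± 0.330 FPKM (0.13) and Psmd9 from 9.07 ± 0.249 to 10.5 ± 0.590 FPKM (0.19). Both were not past the threshold under equal sums (adjusted p = 0.235 and 0.0798).

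**Figure D4:**
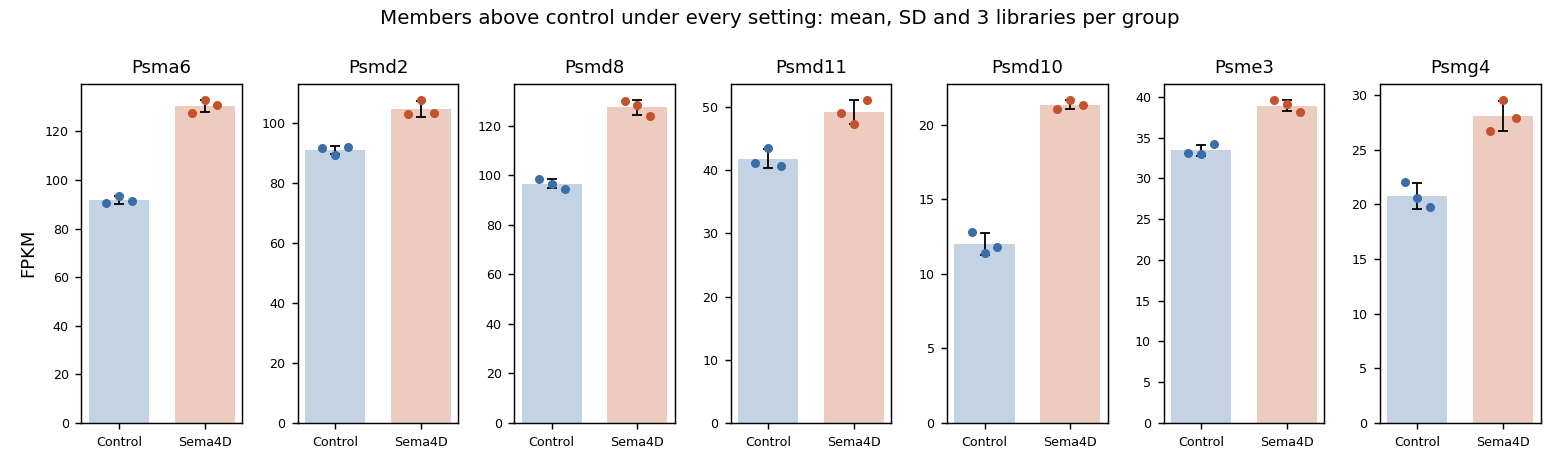
FPKM of the 7 members above control under all 14 settings, with bars for the mean, error bars for the SD and points for the 3 libraries of each group. No Sema4D point of a panel overlaps a control point, and each panel has its own axis from 0.

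Regulators bind the core in place of the cap or restrain it. Psme3, the nuclear activator REG gamma, was at 33.2, 33.0 and 34.2 FPKM in control and 39.6, 39.1 and 38.2 FPKM in Sema4D libraries, without overlap (0.21, SE 0.032, limma adjusted p = 0.000729, and 0.00863 under equal sums). Psme4, the activator PA200, was at 17.1, 15.9 and 16.8 FPKM in control and 17.0, 18.3 and 16.3 FPKM with Sema4D (0.04, adjusted p = 0.508). Psmf1, the inhibitor PI31, was at 9.97, 11.1 and 10.9 FPKM in control and 10.6, 10.7 and 10.2 FPKM with Sema4D (-0.02, adjusted p = 0.794). Groups overlapped for both. Psme2b was listed at 0.0192, 0.0676 and 2.4e-05 FPKM in control and 0.23, 0 and 0 FPKM with Sema4D, under the filter, and its transcript is nearly identical to that of Psme2.

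Summed over the 14 somatic core subunits, FPKM was 1469 ± 2.65 in control and 1602 ± 25.1 in Sema4D libraries, a ratio of 1.09 (1.03 under equal sums). Over the 17 cap subunits it was 1122 ± 6.04 and 1223 ± 16.5, the same ratio of 1.09 (1.03 under equal sums). Core subunits varied among themselves with a coefficient of variation of 26.0% in control and 24.8% in Sema4D libraries, and cap subunits with 27.5% and 31.1%. All 44 members together held 0.564% to 0.566% of the summed FPKM in control and 0.577% to 0.596% in Sema4D libraries.

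Members lay on 16 chromosomes, with 9 on chromosome 11 and 6 on chromosome 2 (RefSeq, GRCm38.p6, which is mm10). All 44 symbols were found there as protein-coding genes. Psma6 spans 55384222 to 55418459 on chromosome 12. The nearest tested gene beyond its end is Nfkbia, which encodes the NF-kappaB inhibitor that the proteasome degrades, 70950 bases away, and which rose from 9.13 to 122.8 FPKM (3.61, limma adjusted p = 1.09e-10). The nearest tested gene before it, Ppp2r3c, 80983 bases away, changed by 0.05 and did not pass. Psmd8 spans 29174187 to 29180673 on chromosome 7 and its neighbour Ggn, 249 bases away, changed by 0.00 at 1.45 FPKM in both groups. On its other side Kcnk6, 41255 bases away, fell (-0.22, limma adjusted p = 0.0301). Psmd10 spans 140948425 to 140956711 on chromosome X and overlaps the span of Atg4a, an autophagy protease gene that went from 7.49 to 8.73 FPKM (0.20, adjusted p = 0.0552). The nearest tested genes outside it, Mid2 (-0.47, limma adjusted p = 5.51e-05) and Col4a5 (-0.33, adjusted p = 0.00119), both fell. Psmg4 spans 34162964 to 34178172 on chromosome 13, where the nearest tested genes, Tubb2b (-0.52) and Pxdc1 (-0.65), both fell. Genes that rose lay next to members that did not pass and also next to members that rose. Examples of the former are Nek6 (1.27), 556 bases from Psmb7, Cxcl16 (1.18), 65340 bases from Psmb6, and Ets2 (1.215), 258884 bases from Psmg1. The transcripts of Nek6 and Psmb7 share a near-identical stretch of 255 bases. Examples of the latter are Csf3 (2.22), 4205 bases from Psmd3, Ifitm2 (0.83), 56195 bases from Psmd13, and Lsm14b (0.35), 901 bases from Psma7. Whether members change with their neighbours was not tested.

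Promoters of the 4 members with the largest changes and of Psmb5 are shown, the 4 because their changes stand apart from those of the other members and Psmb5 as the catalytic subunit with the largest change. Sequences are RefSeq, build GRCm38.p6, read 5′ to 3′ on the gene's own strand, from 150 bases before the annotated start up to that start or to the first base of a GENCODE M21 exon of the gene. Capitals mark matches on either strand to TGACNNNGC (the antioxidant response element core bound by NRF1 and NRF2), CCAAT (or ATTGG), GAANNTTC (a heat shock unit), GGGCGG (or CCGCCC, a GC box) or the NF-kappaB consensus. Psma6 has 2 annotated starts, an upstream one (chr12:55384072-55384221, plus strand) and one inside the gene span (chr12:55398675-55398774, plus strand). The others are chr7:29180702-29180823 (minus), chrX:140956729-140956861 (minus), chr13:34162814-34162963 (plus) and chr14:54618023-54618145 (minus).
Psma6 upstream start: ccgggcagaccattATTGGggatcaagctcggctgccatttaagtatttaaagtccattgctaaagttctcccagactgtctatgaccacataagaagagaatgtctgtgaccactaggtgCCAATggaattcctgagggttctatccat
Psma6 inner start: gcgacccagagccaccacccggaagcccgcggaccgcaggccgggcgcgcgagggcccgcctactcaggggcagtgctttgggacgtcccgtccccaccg
Psmd8: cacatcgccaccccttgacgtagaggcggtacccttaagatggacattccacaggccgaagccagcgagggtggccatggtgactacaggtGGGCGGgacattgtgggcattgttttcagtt
Psmd10: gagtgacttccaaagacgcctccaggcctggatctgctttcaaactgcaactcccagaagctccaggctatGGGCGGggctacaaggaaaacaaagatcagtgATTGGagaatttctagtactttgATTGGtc
Psmg4: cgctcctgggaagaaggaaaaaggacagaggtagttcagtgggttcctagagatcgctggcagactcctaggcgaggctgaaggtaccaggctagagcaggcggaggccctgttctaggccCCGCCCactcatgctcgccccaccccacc
Psmb5: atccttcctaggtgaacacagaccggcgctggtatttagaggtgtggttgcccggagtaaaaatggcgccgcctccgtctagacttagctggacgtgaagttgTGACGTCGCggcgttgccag
The Psmd10 stretch holds CCAAT matches beginning 47 and 24 bases before the start and a GC box at 79. Psmd8 and Psmg4 each hold a GC box, at 59 and 29 bases. The Psma6 inner start holds no match, and its upstream start holds CCAAT matches at 136 and 29 bases. Psmb5 alone of the 5 genes holds TGACNNNGC, at 47 bases.

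Over the full 250 bases before the start, 38 promoter windows of 36 members could be searched. TGACNNNGC was found in 5 of the 38 (Psmb5, Psmb6, Psmc6, Psmd9 and Psmd12), or 13.2%, beside 10.2% of all 32851 windows. Of those 5 genes, Psmb5, Psmd9 and Psmd12 rose in the deposited values, and under equal sums none rose and Psmc6 fell. The CCAAT box was in 34.2% of member windows and 33.9% of all, the heat shock unit in 5.26% and 6.69%, and the GC box in 50% and 32.7%. The NF-kappaB consensus was in 1 window, that of Psmd12, or 2.63%, beside 3.90% of all. Motifs can overlap each other, and a match is a run of letters only.

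Other genes of the pathway came from lists of textbook members. Of the cap and assembly genes that the symbol rule does not catch, the ubiquitin receptor Adrm1 (60.35 to 67.85 FPKM, 0.17) and the core maturation factor Pomp (95.5 to 109.8 FPKM, 0.20) rose, and the lid subunit Shfm1 did not pass (-0.05). Under equal sums 0 of these 3 passed by limma, and at an unadjusted p under 0.05, 2 were higher and 1 lower. After quantile normalization Adrm1 was higher (adjusted p = 0.0273) and Shfm1 lower (-0.17, adjusted p = 0.0413). Their median change was 0.17, beside 0.01 over all tested genes. Of 10 proteasome-bound factors 5 rose and 2 fell (median 0.12). Zfand5, which stimulates the cap, rose from 10.15 ± 0.581 to 13.1 ± 0.246 FPKM (0.34, limma adjusted p = 0.000599), and the scaffold AI314180 (Ecm29) rose by 0.19. The deubiquitinases Usp14 (0.12) and Uchl5 (0.25) and the ligase Ube3c (0.13) rose in the deposited values and not under equal sums. Akirin2, which guides nuclear import of proteasomes (-0.14), and the adaptor Fbxo7 (-0.23) fell.

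Of 6 tested ubiquitin receptors and shuttles 3 rose and 1 fell (median 0.10). Rad23b (0.16) and Ubqln4 (0.30) were among those that rose, and Ubqln2 (-0.15) fell. Of 8 genes of the VCP segregase, which extracts ubiquitinated proteins, its cofactors Nploc4 (0.23) and Faf2 (0.17, not past the threshold under equal sums) rose, 0 fell (also 0 at an unadjusted p under 0.05 by limma, median 0.02), and Vcp itself, at 185.0 and 189.4 FPKM, did not pass (0.03). Of 7 genes of ubiquitin and its activation 3 rose (median 0.05), among them the polyubiquitin gene Ubb (248.3 to 291.8 FPKM, 0.23) and the activating enzyme Uba6 (0.17). The call of Uba6 was lost under equal sums (adjusted p = 0.166), quantile normalization (0.0679), median centring (0.112) and without the filter, and held in 4 of 14 settings. The ribosomal fusion Rps27a did not pass in the deposited values (-0.04) and was lower under equal sums (adjusted p = 0.0345) and after quantile normalization (0.0324). Under equal sums, higher and lower calls were 2 and 2 for the bound factors, 1 and 1 for the receptors, 1 and 1 for VCP genes and 1 and 1 for ubiquitin genes. The shares over all tested genes were 24.5% higher and 22.2% lower in the deposited values and 17.3% and 32.8% under equal sums, and the 2 of 8 VCP genes that rose were near the first of these.

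Of 15 tested genes that control proteasome transcription or its sensors, 5 rose and 2 fell (5 and 5 under equal sums), with a median change of 0.03. Over all tested genes 24.5% were higher and 22.2% lower (17.3% and 32.8% under equal sums), so nothing is read from these counts about the list. Nfe2l1, which encodes NRF1, the factor that raises proteasome genes when proteasome activity falls, was at 172.0, 176.3 and 181.2 FPKM in control and 242.3, 234.8 and 239.5 FPKM in Sema4D libraries. Its groups did not overlap (0.43, SE 0.029, limma adjusted p = 5.49e-06, and 0.35 under equal sums). Nfe2l2, the gene of NRF2, rose from 35.25 ± 1.42 to 65.5 ± 1.68 FPKM (0.88), and the small MAF partners Mafg (0.65), Mafk (0.49) and Maff (1.99) rose as well. Ngly1, the glycanase that processes NRF1, fell from 12.9 ± 0.404 to 10.6 ± 0.398 FPKM (-0.25, adjusted p = 0.00181), and Ddi2, the protease that cuts it, counted above among the receptors, did not pass (0.07, adjusted p = 0.583). Nfyb, a CCAAT-binding subunit, fell by 0.19 on the log2 scale, and its partners Nfya and Nfyc did not pass (0.03 and -0.01).

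Counting limits most the members with few fragments, a number that depends on transcript length as well as level. Psma8, described above, had the fewest of the tested members. Taking the full length of the principal GENCODE transcript, Psmg4 had about 164 to 273 fragments per library and Psmg3 214 to 333. Psmd10 had 246 to 538 and Psmd9 322 to 480, while Psma6 had 1262 to 2378 and Psmd8 2031 to 3582. The depth estimate took the assumed fragment length of 200 bases off each transcript, and these counts did not. By that estimate the counts are too high, most so for short transcripts such as that of Psmg4 (555 bases). Of the 44 members, 13 share a stretch of at least 200 bases at 95% identity or more with a transcript of another gene, so their values are uncertain. Psmd2 and Psmd11 are among these 13, and so are Psma3, Psma4, Psma5, Psmb3, Psmb5, Psmb7, Psmc1, Psmd1, Psmd13, Psme2b and Psmg3. For Psmb7 the other gene is its neighbour Nek6, and for Psmd13 its neighbour Sirt3 (255 and 329 bases). No such copy was found for Psma6, Psmd8, Psmd10, Psmg4 or Psme3.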

How the data were processed

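RNA-seq FPKM values were deposited by the authors as 1 table of 24346 gene symbols by 6 libraries, 3 control and 3 Sema4D. Per the submitters' processing notes, TopHat2 2.0.13, Bowtie2 2.2.3, SAMtools 0.1.19, Cufflinks 2.2.1 and build mm10 were used. The annotation, the strand setting and any further scaling are not given in the sources used here. From these FPKM, limma 3.58.1 (trend, two-sided) in R 4.3.3 was fitted to log2(FPKM + 1) for the 11603 genes whose mean FPKM reached 1, with Benjamini-Hochberg adjustment over all of them and a threshold of 0.05. A fold change on this scale understates low genes. Depth was estimated from the steps between low FPKM of long single-transcript genes, of which 79.2% to 86.0% lay within 0.15 of a whole fragment, assuming fragments of 200 bases. Near-identical transcripts were sought with BLAST 2.17.0 in GENCODE M21. The fit was tested on simulated data.

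Members and gene lists were chosen with earlier results of these data known. Every member could be named, with full statistics for the catalytic subunits and, per role, the largest changes in either direction and the smallest adjusted p. Of the other lists, genes past the threshold could be named. Shfm1, Vcp, Ddi2, Rps27a, Nfya, Nfyc, single marker genes, neighbouring genes and members that hold across settings were named after their values were seen. Alternatives changed the pseudocount, the filter, the scaling, the replicate block or left out 1 library, and equal column sums were added after seeing the data. Ratios of catalytic subunits used the exact permutation test over libraries. Some genes of the ubiquitin lists are counted but not reported singly here.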

Additional observations from a re-analysis of the deposited data

How the results depend on the processing

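Scaling of the libraries moved the counts most. Against 25 members higher and 0 lower in the deposited values, quantile normalization gave 14 and 2, median centring 13 and 1, and equal column sums, chosen after seeing the data, 7 and 4. Over all tested genes, 2841 were higher and 2581 lower in the deposited values. The same counts were 2167 and 3415 by quantile, 2222 and 3378 by median centring and 2002 and 3801 under equal sums. The members' median log2 fold change of 0.12 was 0.0633 after quantile normalization, 0.0643 after median centring and 0.0357 under equal sums. Over all tested genes the median was 0.01 in the deposited values and -0.0486, -0.0462 and -0.0678 in the same order. The summed core and cap ratios of 1.09 were 1.03 and 1.03 under equal sums. Medians by role turned negative for the beta ring (-0.0192 by quantile, -0.0012 by equal sums), the regulators (-0.0181 by quantile, -0.00852 by median centring, -0.034 by equal sums) and the alpha-ring chaperones (-0.0293, -0.0162 and -0.0426 in the same order), and Psmb4 turned to -0.0192 by quantile. Each of these negative values lay above the median of all tested genes under the same scaling. Without a filter on low values 17 members were higher, beside 2515 of all genes. Leaving out 1 library gave 18 to 24 members higher and 0 to 1 lower (Psmd6, without control replicate 3). Over all tested genes it gave 2471 to 2635 higher and 2207 to 2327 lower. Replicate numbers did not pair the libraries (correlations of deviations 0.14, -0.08 and -0.05). The replicate block gave 23 members higher and 0 lower, beside 2638 and 2356 of all tested genes, and the calls of Psmd1 and Psmd14 were lost. Uncalled members changed sign without a call in either fit 10 times under equal sums and 6 times each by quantile and median centring. The cause of the dependence on scaling was not tested. Psmg4, the member resting on the fewest fragments of those that rose, had about 164 to 273 per library at full transcript length. By the depth estimate these counts are too high. Psmg3, Psmg4, Psmd9 and Psmd10 are therefore limited more by counting than the abundant subunits. Their SE (0.086, 0.052, 0.050 and 0.047) was not always larger, as the abundant Psmb3 and Psmd6 each had 0.050.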
